A study of Mus musculus with 80 samples.

Results

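Cadherins and non-clustered protocadherins were examined as a family of 35 genes among the 13016 genes that passed a filter of at least 5 CPM (read counts scaled to the size of the library) in at least 8 libraries, out of 27179 genes counted. The rule took every gene whose symbol in the deposited log2 table was Cdh with a number (other than Cdh5, the cadherin of blood vessels), Pcdh followed directly by a number, Celsr1 to Celsr3, Fat1 to Fat4, Dchs1 or Dchs2. The 35 genes were 4 type I classical cadherins, 10 type II classical cadherins, the 2 other cadherins Cdh13 and Cdh23, 4 delta-1 protocadherins, 5 delta-2 protocadherins, the 2 other protocadherins Pcdh15 and Pcdh20, the 3 Celsr genes, and 5 genes of the Fat and Dachsous branch (Fat1 to Fat4 and Dchs1). Cdh18 and Cdh24 passed the filter but had no symbol in that table, so they were not counted among the 35. Cdh3, Cdh16, Cdh17, Cdh26 and Pcdh12 did not pass the filter, with a mean of at most 0.869 CPM in every region, and Dchs2 was not analysed here.

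Cadherins are membrane proteins that bind across the gap between cells through calcium-dependent extracellular repeats, and classical cadherins are tied to actin inside the cell through catenins. In the developing brain, neurons of different nuclei and layers carry different sets of type II cadherins and delta-protocadherins, and these proteins take part in cell sorting, axon guidance and synapse formation. Protocadherins of the delta groups signal to the actin cytoskeleton through the WAVE complex among other routes, whereas the Celsr proteins act in planar cell polarity and the Fat proteins bind Dachsous proteins.

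RNA was measured in the hypothalamus, cerebellum, hippocampus, neocortex and amygdala of 16 age-matched C57BL/6 females (C57BL/6J in the study's methods) with no engineered allele, which were either virgin or primiparous (after a first litter). Primiparous females were caged with a male from 8 weeks of age, raised that litter, and were sampled 3 weeks after weaning according to the labels, while the study's methods give a longer interval. Virgin females were the same age and were kept with other females. Only the primiparous females had lived with a male, so mating, pregnancy, rearing and housing cannot be told apart. The hypothalamus was taken whole and the other regions from the left side. Each library came from 1 region of 1 animal, with 8 virgin and 8 primiparous libraries in the hypothalamus and the neocortex, and 7 virgin and 8 primiparous libraries in each of the other 3 regions.

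The 77 libraries held 7959192 to 37871854 counted reads (median 17623886). Region labels were checked against fixed markers. Hcrt averaged 244 CPM in the hypothalamus and at most 1.40 CPM elsewhere, Gabra6 averaged 636 CPM in the cerebellum and at most 4.29 CPM elsewhere, and Lct averaged 60.9 CPM in the hippocampus and at most 1.68 CPM elsewhere. Cux2 was highest in the neocortex, and Cyp26b1 and Lhx6, but not Rspo2, were highest in the amygdala. Some libraries stood apart on markers of neighbouring tissue. In the hippocampus of primiparous animal 413, the cerebellar markers Gabra6, Cbln3, Pcp2 and Car8 were at 54.3, 115, 21.5 and 223 CPM, against means of 0.720, 1.91, 0.874 and 8.10 CPM in the 14 other hippocampus libraries. Summed choroid plexus markers reached 1254 and 3502 CPM in virgin and primiparous cerebellum (medians 37.7 and 76.2) and 3440 and 3835 CPM in virgin and primiparous hippocampus (medians 97.8 and 84.5). Thalamus markers reached 178 CPM in virgin hypothalamus (median 70.04), and olfactory bulb markers fell to 8.90 CPM in primiparous neocortex (median 243). Summed pituitary markers reached 170, 120, 116 and 60.0 CPM in primiparous amygdala, cerebellum, neocortex and hippocampus (medians 3.27, 4.84, 1.11 and 1.42). In virgin libraries of the same regions they reached at most 35.9 CPM, in the neocortex. Each library was left out in turn in the comparisons of states, and animal 413 in those of regions as well. The part of the other libraries in the region values was not tested. According to the study's methods the libraries of each region were pooled for sequencing, so a difference between regions cannot be told apart from one between sequencing pools. In whole tissue, fewer cells of a type and less RNA per cell cannot be told apart either.

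Most of the family differed between brain regions. By edgeR's quasi-likelihood test in a fit of all 10 groups, with a log2 difference of at least 1 and an adjusted p under 0.05 as the call, 28 of the 35 members (80.0%) were called in at least 1 of the 10 pairs of regions, against 37.8% of all genes tested. The median ratio of the highest to the lowest region mean was 5.99 for the members and 1.72 for all genes tested, and 22 of the 35 members had a ratio of at least 4 (62.9%, against 15.7% of all genes tested). A gene high in a single region can pass the filter through that region alone. This held for Cdh1, Cdh23 and Fat2 (8.57% of the members) and for 5.58% of all genes tested. The filter favours a difference between regions in such a gene, so these 3 are given by their values, with no p. The median ratio and the share with a ratio of at least 4 include them. Without genes of that kind, 25 of 32 members were called in at least 1 pair, against 35.1% of the other 12290 genes. The hypothalamus had the highest mean for 16 members, the cerebellum for 8, the hippocampus for 7, and the neocortex and the amygdala for 2 each. The cerebellum had the lowest mean for 21 members. These counts of highest and lowest means are given without a share over all genes. Of the pairs, hypothalamus and cerebellum had 23 members called (21.8% of all genes tested), with 18 higher in the hypothalamus (12.8%) and 5 higher in the cerebellum (9.01%). The cerebellum likewise had 23 called in its pair with the hippocampus (21.5%), 23 with the amygdala (22.7%) and 21 with the neocortex (20.9%). Between hypothalamus and neocortex, 8 members were higher in the hypothalamus (7.88% of all genes tested) and 0 were lower (8.02%). The counts for pairs include genes that passed the filter through a single region. Fat2 and Cdh1 are among the 5 higher in the cerebellum, and Cdh23 is among the 18 higher in the hypothalamus. No count or share for a pair is given without such genes. For 11 members, each of the 4 steps in the order of regions passed an adjusted p of 0.05, as for Pcdh17 and Cdh9, while the other 24 had at least 1 pair of neighbouring regions that did not differ by the test. No share over all genes is given for this count, so it is not read as a trait of the family.

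**Figure D1:**
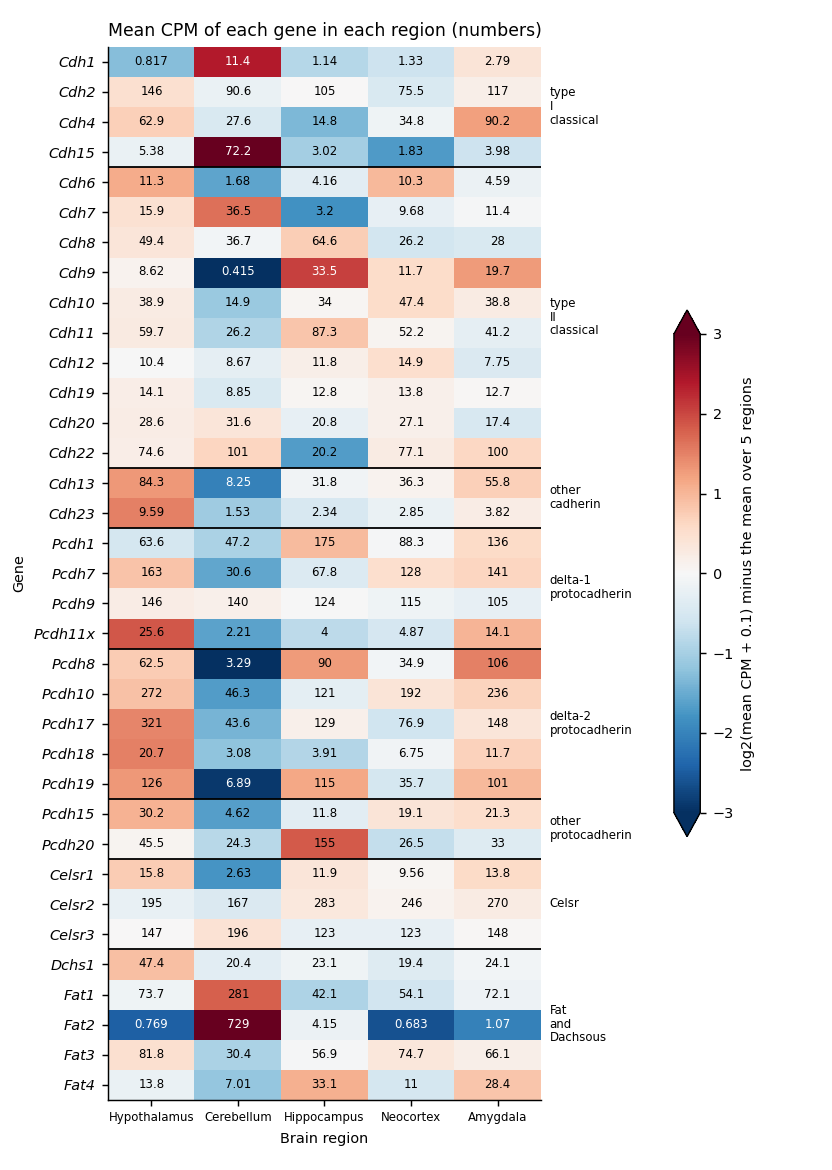
Mean CPM of the 35 members (rows, grouped by subfamily) in the 5 regions (columns, 15 or 16 libraries each). Numbers are mean CPM, and colour is log2(mean CPM + 0.1) minus the mean of the 5 regions for that gene, so red marks a region above and blue a region below the gene's own average. Fat2 stands at 729 CPM in the cerebellum and 4.15 CPM or less elsewhere, whereas most delta-protocadherins are blue in the cerebellum.

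Members were called enriched in a region where they were higher there than in each of the other 4 regions by the same rule. This was so for 7 of the 35 members, against 8.07% of all genes tested, of which 5 were enriched in the cerebellum (14.3% of the members, against 4.14% of all genes tested). The 5 were Fat2, Cdh15, Fat1, Cdh1 and Cdh7. Without the genes that passed the filter through a single region (Cdh1, Cdh23 and Fat2 among the members), 4 of 32 members were enriched, against 5.48% of the other genes, and 3 of them in the cerebellum, against 3.01%. Cdh23 was enriched in the hypothalamus (2.39% of all genes tested) and Pcdh20 in the hippocampus (0.768%), and 0 members were enriched in the neocortex or the amygdala, where 0.553% and 0.215% of all genes tested were. The call of Cdh23, which passed the filter through the hypothalamus alone, was lost when only primiparous libraries were used.

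Fat2 (Entrez 245827, chr11:55250609-55336564, minus strand, GRCm38), a giant cadherin known from the parallel fibres of cerebellar granule cells, was at 495 to 992 CPM (median 709.9) in the 15 cerebellum libraries. It was at 0 to 3.83 CPM in the hypothalamus, 0.115 to 1.23 CPM in the neocortex and 0 to 2.29 CPM in the amygdala. In the hippocampus it was at 46.8 CPM in the library of primiparous animal 413 and at most 1.81 CPM in the 14 others, so the cerebellum did not overlap any other region. The log2 difference from the hippocampus, the next region, was 8.01 ± 0.39 (SE) with that library and 9.25 ± 0.23 without it. Its part in the Fat2 level of the hippocampus, beside the 4 cerebellar markers, was not tested.

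Cdh15 (Entrez 12555, chr8:122847966-122867397, plus strand), M-cadherin of muscle and of granule cells, was at 57.7 to 89.5 CPM (median 70.5) in the cerebellum. Its next region, the hypothalamus, was at 2.22 to 8.60 CPM, and the hippocampus library of animal 413 was at 8.73 CPM against 2.61 ± 0.611 CPM (SD, n = 14) in the others. The cerebellum exceeded the hypothalamus by 3.75 ± 0.14 on the log2 scale (SE, edgeR adjusted p = 9.81e-38), with no overlap between the cerebellum and any other region.

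Fat1 (Entrez 14107, chr8:44935447-45052257, plus strand) is a Fat cadherin found at cell contacts in many tissues. It was at 207 to 359.9 CPM (median 269) in the cerebellum and at 26.1 to 93.5 CPM over all libraries of the other 4 regions. The smallest of its 4 differences was that from the amygdala, a log2 of 1.83 ± 0.10 (SE, edgeR adjusted p = 1.55e-28). Cdh1 (Entrez 12550, chr8:106603351-106670246, plus strand), E-cadherin of epithelia, was low throughout but was at 9.41 to 15.7 CPM (median 10.98) in the cerebellum, above every library of the other regions, the highest of which held 5.59 CPM in the amygdala. Its log2 difference from the amygdala was 1.90 ± 0.27 (SE). Cdh7 (Entrez 241201, chr1:109982431-110140157, plus strand), a type II cadherin, was at 27.9 to 41.1 CPM (median 35.9) in the cerebellum, 12.9 to 19.7 CPM in the hypothalamus and 1.88 to 6.44 CPM in the hippocampus, so these regions did not overlap. The cerebellum exceeded the hypothalamus by a log2 of 1.21 ± 0.09 (SE, edgeR adjusted p = 8.16e-21), and the hippocampus was lower than each of the other 4 regions by the same rule.

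Cdh23 (Entrez 22295, chr10:60302748-60696490, minus strand), which with Pcdh15 forms the tip links of hair cells, was at 4.50 to 13.1 CPM (median 10.1) in the hypothalamus. The amygdala followed with 2.31 to 5.10 CPM, and 1 neocortex library reached 6.44 CPM, so the lowest hypothalamus libraries overlapped other regions. The log2 difference between hypothalamus and amygdala was 1.20 ± 0.17 (SE). Pcdh20 (Entrez 219257, chr14:88464743-88471396, minus strand) was at 127 to 179.8 CPM (median 152) in the hippocampus, against at most 55.8 CPM in any library of another region. Its log2 difference from the hypothalamus was 1.91 ± 0.08 (SE, edgeR adjusted p = 2.21e-34). The hippocampus did not overlap the other regions for this gene.

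**Figure D2:**
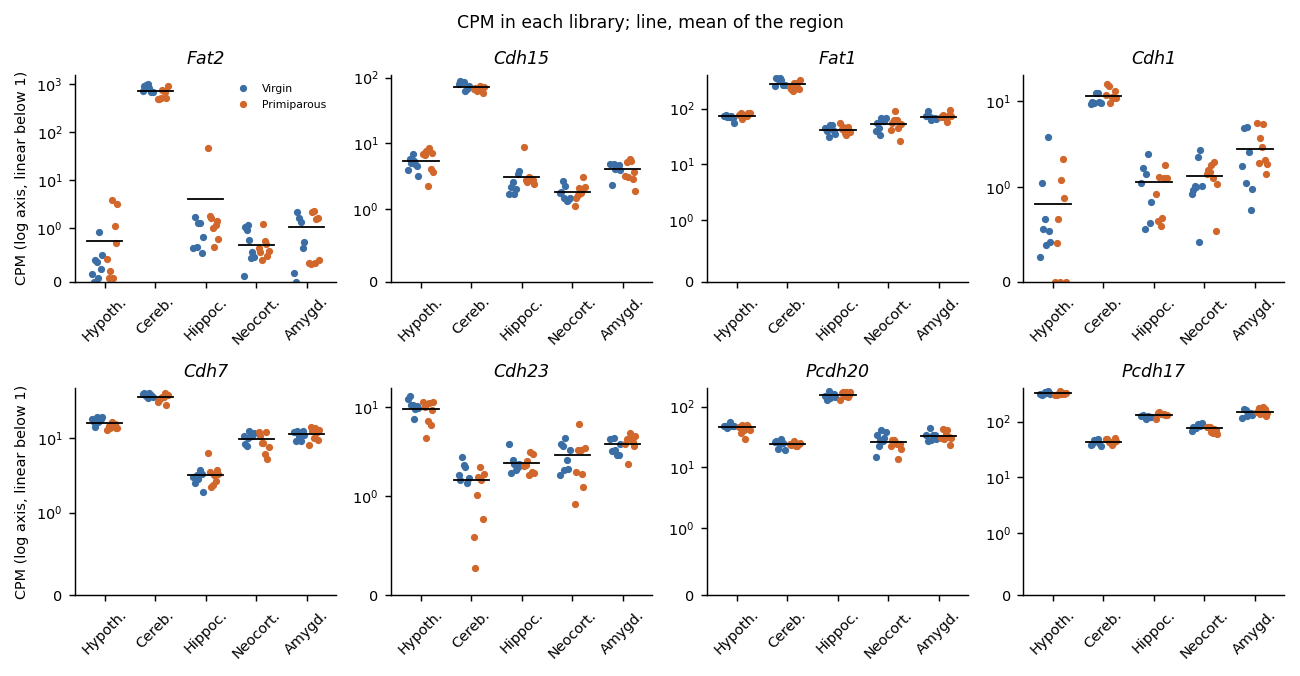
CPM of the 7 enriched members and of Pcdh17 in each library (dots, blue for virgin and orange for primiparous), by region, on a logarithmic axis that is linear below 1 CPM. Lines are region means. In 6 of the 7 enriched members the highest region does not overlap any other, and the single high Fat2 dot in the hippocampus is primiparous animal 413 at 46.8 CPM. Of those 6, Fat2 and Cdh1 passed the filter through a single region. No share of such genes over all genes is given.

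Promoter sequence from RefSeq (GRCm38.p6) was examined for 25 of the 35 members, as 28 windows of 250 bases upstream of an annotated start. No window of Cdh2 or Pcdh1 was examined. Cdh2, with a ratio of highest to lowest region mean of 1.93, is therefore missing from the comparison below. The start lay within 500 bases of the GENCODE M21 gene start for 19 members. The windows of Fat1 and Fat2 did not meet this and are not printed. A start near the gene start can still place the window inside the gene. That was so for Cdh15 (window from 122848124, gene from 122847966). It also held for the Cdh7 window nearest to its gene start (window from 109982650, gene from 109982431). Windows of 3 enriched members and of 3 members with even levels (ratio of highest to lowest region mean under 2) are shown to compare their CpG dinucleotides, which are in capitals. The windows are chr8:122848124-122848373 (plus strand) for Cdh15, chr10:60696491-60696740 (minus strand) for Cdh23, chr14:88471397-88471646 (minus strand) for Pcdh20, chr3:108415580-108415829 (minus strand) for Celsr2, chr9:108825795-108826044 (plus strand) for Celsr3 and chr14:93890680-93890929 (minus strand) for Pcdh9.
Cdh15: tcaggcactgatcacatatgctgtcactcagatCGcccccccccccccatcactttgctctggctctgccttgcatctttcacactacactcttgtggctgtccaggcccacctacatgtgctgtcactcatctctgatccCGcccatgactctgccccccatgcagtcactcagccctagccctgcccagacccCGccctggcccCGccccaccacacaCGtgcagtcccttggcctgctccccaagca
Cdh23: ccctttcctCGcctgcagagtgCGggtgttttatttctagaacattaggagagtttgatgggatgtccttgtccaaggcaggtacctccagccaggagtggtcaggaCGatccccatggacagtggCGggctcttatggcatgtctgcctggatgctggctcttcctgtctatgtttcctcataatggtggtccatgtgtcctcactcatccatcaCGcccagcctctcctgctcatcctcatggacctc
Pcdh20: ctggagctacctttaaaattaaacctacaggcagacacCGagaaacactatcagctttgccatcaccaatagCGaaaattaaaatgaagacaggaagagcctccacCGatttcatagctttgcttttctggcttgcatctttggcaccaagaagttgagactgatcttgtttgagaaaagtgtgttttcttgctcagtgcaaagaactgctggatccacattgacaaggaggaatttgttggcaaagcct
Celsr2: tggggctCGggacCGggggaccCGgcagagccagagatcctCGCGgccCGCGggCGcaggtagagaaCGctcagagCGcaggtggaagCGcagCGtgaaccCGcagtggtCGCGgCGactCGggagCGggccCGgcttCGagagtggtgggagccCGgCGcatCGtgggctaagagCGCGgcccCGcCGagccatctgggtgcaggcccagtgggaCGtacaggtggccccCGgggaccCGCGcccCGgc
Celsr3: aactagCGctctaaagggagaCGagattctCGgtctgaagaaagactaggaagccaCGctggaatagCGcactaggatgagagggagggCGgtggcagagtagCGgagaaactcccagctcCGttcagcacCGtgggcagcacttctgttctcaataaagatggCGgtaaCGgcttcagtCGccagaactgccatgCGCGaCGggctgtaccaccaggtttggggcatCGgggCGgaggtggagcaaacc
Pcdh9: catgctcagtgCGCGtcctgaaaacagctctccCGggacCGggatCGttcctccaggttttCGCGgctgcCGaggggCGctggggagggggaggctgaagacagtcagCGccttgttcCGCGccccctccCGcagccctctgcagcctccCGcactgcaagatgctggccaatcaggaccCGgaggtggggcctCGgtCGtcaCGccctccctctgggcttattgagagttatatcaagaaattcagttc
The windows of Cdh15 and Cdh23 held 5 CpGs each and that of Pcdh20 held 3, while Celsr2 held 32, Pcdh9 18 and Celsr3 17. The median over all 32851 windows in the RefSeq table was 6, and over the 28 windows of members it was 11. The groups were not cleanly apart. The even member Cdh20 held 10, fewer than the enriched Cdh7, which held 13 in the window nearest to its gene start, and Pcdh17, Pcdh10 and Cdh22, which differed between regions at least 5-fold, held 21, 22 and 30. The GC box, GGGCGG on either strand, occurred in 9 of the 28 member windows (32.1%) and in 32.7% of all windows. Cdh15 held 3 of them and Cdh23 and Pcdh20 held 0.

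The delta-2 protocadherins formed the subfamily with the highest summed level in the hypothalamus. Their summed CPM was 802 ± 31.7 (SD, n = 16) there, 602 ± 54.8 in the amygdala, 459 ± 30.3 in the hippocampus, 346 ± 42.8 in the neocortex and 103 ± 7.64 in the cerebellum. Pcdh17, a delta-2 member located at presynaptic zones of corticobasal circuits, was at 295 to 359.9 CPM in the hypothalamus, 118 to 184 CPM in the amygdala and 36.1 to 49.9 CPM in the cerebellum, with no overlap between the hypothalamus and any other region. Its log2 difference of 0.98 ± 0.05 (SE, edgeR adjusted p = 1.28e-29) from the amygdala lay just under the threshold of 1. Pcdh19, the X-linked gene mutated in a form of epilepsy limited to females, was at 126 ± 11.6 CPM in the hypothalamus (SD, n = 16), 115 ± 13.2 CPM in the hippocampus (n = 15), 101 ± 12.5 CPM in the amygdala (n = 15), 35.7 ± 6.03 CPM in the neocortex (n = 16) and 6.89 ± 1.02 CPM in the cerebellum (n = 15). Its hypothalamus and hippocampus libraries did not differ by the test. Pcdh8, an activity-regulated protocadherin, was at 82.3 to 131.5 CPM in the amygdala and 1.81 to 5.44 CPM in the cerebellum, and 9.61% of its exon bases overlap a gene on the opposite strand that these counts cannot separate.

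In all, 12 of the 35 members were lower in the cerebellum than in each of the other 4 regions (34.3%, against 6.74% of all genes tested), and Cdh7 and Cdh22 were lowest in the hippocampus by the same rule (0.338%). The 14 members lowest in a single region compare with 9.1% of all genes tested. The 12 were the type II cadherins Cdh6, Cdh9 and Cdh10, T-cadherin Cdh13, the protocadherins Pcdh7, Pcdh8, Pcdh10, Pcdh11x, Pcdh15 and Pcdh19, Celsr1 and Fat3. Cdh9, a synaptic cadherin of hippocampal mossy fibre contacts, had the widest span of them. It was at 25.8 to 42.1 CPM in the hippocampus, 14.5 to 29.5 CPM in the amygdala, 8.02 to 16.9 CPM in the neocortex, 5.38 to 11.1 CPM in the hypothalamus and 0 to 0.714 CPM in the cerebellum. Its cerebellum libraries were below every other library.

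The members with the smallest ratio of highest to lowest region mean were Pcdh9 (1.39), Cdh19 (1.6) and Celsr3 (1.6). Pcdh9, a delta-1 protocadherin, ranged from 105 ± 8.42 CPM (SD, n = 15) in the amygdala to 146 ± 16.6 CPM (n = 16) in the hypothalamus. Per kilobase of exon, the members with the highest mean in any region were Fat2 in the cerebellum (50.2 ± 11.7 CPM per kb), Pcdh20 in the hippocampus (28.2 ± 3.08) and Cdh22 in the cerebellum (27.4 ± 2.20). The lowest on this scale, each in its highest region, the hypothalamus, were Cdh23 (0.566 ± 0.136), Cdh6 (1.25 ± 0.182) and Pcdh15 (1.27 ± 0.159). Of the related genes outside the 35, Cdh18 was at 60.6 ± 3.88 CPM in the cerebellum and 9.16 ± 1.32 CPM in the hippocampus, and Cdh24 at 18.4 ± 2.92 CPM in the hippocampus and 2.85 ± 0.925 CPM in the cerebellum.

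Virgin and primiparous females were then compared within each region, where the question was whether a first litter left lasting differences. In the hypothalamus, edgeR called 11 of the 35 members at an adjusted p under 0.05 (31.4%, against 22.6% of all genes tested). Higher in primiparous females were 4 of them (11.4%, against 10.8% of all genes tested), namely Cdh22, Pcdh1, Celsr3 and Celsr1. Lower were 7 (against 11.8%), namely Pcdh9, Cdh10, Cdh11, Cdh7, Pcdh11x, Pcdh7 and Cdh8. None of the 11 was called with a correction for gene length and GC content or with a covariate for the animal-number series (values of both follow after the single members), and 3 were in 1 fit of all 10 groups, where the members' share (8.57%) lay below that of all genes tested (16.8%). limma-voom called 9 of the 11 (19.8% of all genes tested), without Celsr1 (adjusted p = 0.0624) and Cdh8 (0.0587), and DESeq2 called 14 members (25.6% of all genes tested), all 11 among them. Leaving out 1 library moved the count of 11 to 7 (without virgin 4487 or 4491) or to as many as 17 (without primiparous 4493), and Cdh8, Pcdh11x, Pcdh7 and Celsr1 lost their calls in 13, 9, 8 and 7 of the 16 such fits. No share over all genes is given for these fits, so the shift in the count is not read as a trait of the family. The changes were small, from 1.10-fold to 1.30-fold, and the groups overlapped for every member, as they did for all but 0.884% of the genes tested. An unadjusted p under 0.05 was reached by 19 members, against 37.1% of all genes tested. The median log2 difference was -0.10 over the members and 0.01 over all genes tested.

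Among the 4 higher members, Cdh22, a type II cadherin, had the smallest p. Its levels were 58.9 to 77.0 CPM (median 63.2) in virgin and 70.5 to 108.7 CPM (median 82.2) in primiparous hypothalamus. All 8 primiparous libraries lay above the virgin mean, and the log2 difference was 0.34 ± 0.08 (SE, edgeR adjusted p = 0.00458). Pcdh1, a delta-1 protocadherin, was at 51.9 to 67.4 CPM (median 54.7) in virgin and 61.3 to 93.8 CPM (median 69.3) in primiparous females, a log2 difference of 0.28 ± 0.08 (adjusted p = 0.0116). The planar cell polarity cadherin Celsr3, which guides axon tracts, was at 109 to 157 CPM (median 128) and 129 to 184 CPM (median 167), with a log2 difference of 0.27 ± 0.07 (adjusted p = 0.0119). Celsr1, of the same group, was at 8.22 to 18.1 CPM (median 13.7) and 14.4 to 22.3 CPM (median 17.7), with a log2 difference of 0.38 ± 0.13 (adjusted p = 0.0386).

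Of the 7 lower members, Pcdh9 had the smallest p. It was at 138.6 to 167 CPM (median 162) in virgin and 117 to 154 CPM (median 135) in primiparous hypothalamus, a log2 difference of -0.26 ± 0.06 (SE, edgeR adjusted p = 0.00434), and all 8 primiparous libraries lay below the virgin mean. Cdh10, a type II cadherin, was at 38.7 to 45.3 CPM and 28.6 to 39.5 CPM in the 2 groups, with a log2 difference of -0.24 ± 0.07 (adjusted p = 0.0145) that turned to 0.14 with the length and GC correction. Cdh11, a type II cadherin also known from bone, was at 57.5 to 67.6 CPM in virgin and 49.0 to 64.3 CPM in primiparous females, with a log2 difference of -0.22 ± 0.06 (adjusted p = 0.0152). For these 3 members the highest primiparous libraries reached into the virgin range.

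Cdh7 was at 14.04 to 19.7 CPM in virgin and 12.9 to 16.5 CPM in primiparous females, with a log2 difference of -0.29 ± 0.09 (SE, edgeR adjusted p = 0.0180). Pcdh11x, an X-linked delta-1 protocadherin, was at 24.2 to 30.4 and 20.1 to 27.4 CPM, with a log2 difference of -0.23 ± 0.08 (adjusted p = 0.0328) that turned to 0.078 with the length and GC correction. Pcdh7, of the same group, was at 156 to 183 and 148 to 167 CPM, with a log2 difference of -0.14 ± 0.05 (adjusted p = 0.0367), but 21.1% of its exon bases overlap the gene 4932441J04Rik on the opposite strand. Cdh8 was at 47.7 to 54.8 and 37.2 to 56.4 CPM, with a log2 difference of -0.19 ± 0.07 (adjusted p = 0.0482).

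**Figure D3:**
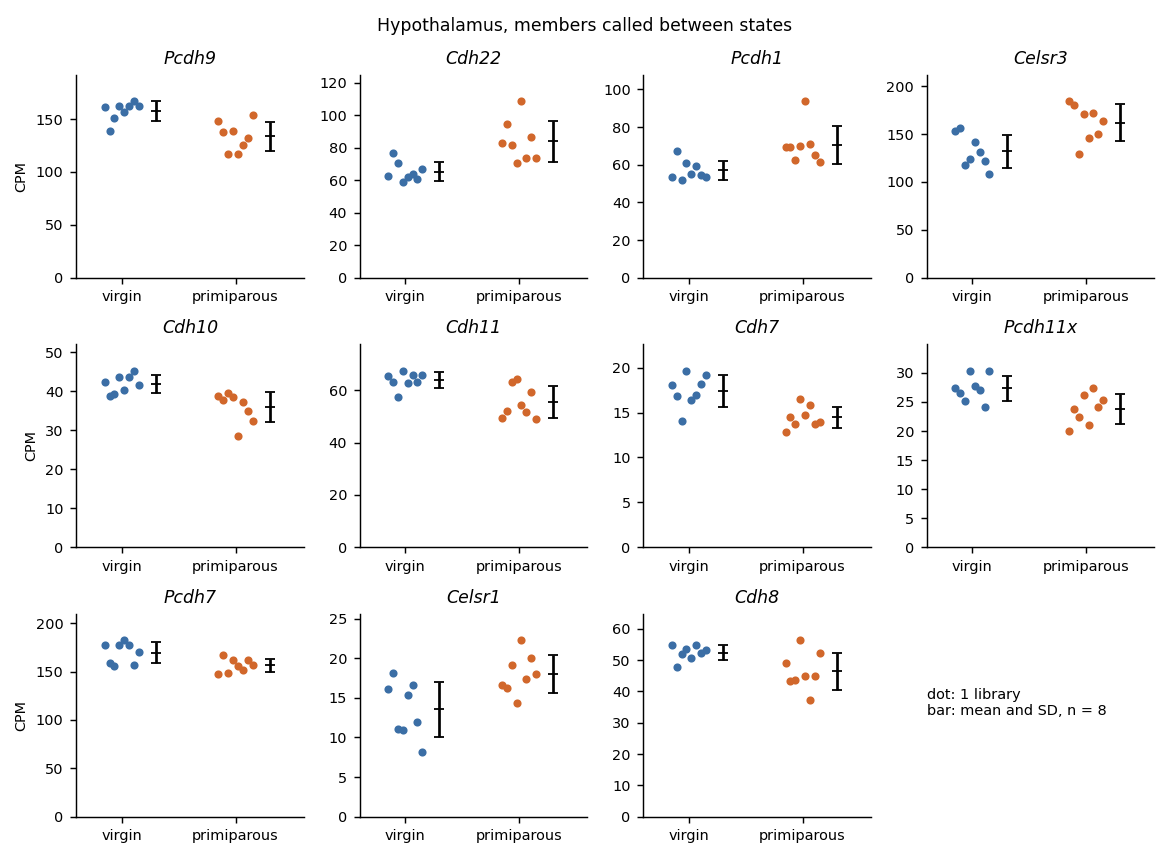
CPM of the 11 members called in the hypothalamus, 1 dot per library, with the mean and SD of the 8 virgin and 8 primiparous libraries beside the dots. The axes start at 0 to show that the shifts, 1.10-fold to 1.30-fold, are small against the level and that the groups overlap in each panel.

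The direction of change went with base composition. The 4 higher members had a GC content of 57.8% to 62.7% over their longest transcript, and the 7 lower members one of 33.8% to 45.8%. Over the 33 members with at least 1 CPM in the hypothalamus, GC content and the log2 difference had a Pearson's r of 0.82, which is a description across genes of the same libraries (0.46 with Cdh1 and Fat2, which are under 1 CPM). Over the 12632 genes with a known length and GC content it was 0.64. The neocortex, where 0 members were called, had nearly the same r (0.80 over 34 members and 0.62 over all these genes). It was -0.26 over 34 members in the cerebellum, and 0.06 and -0.08 over 35 in the hippocampus and the amygdala. Over all these genes it was -0.01 in the cerebellum, -0.15 in the hippocampus and -0.32 in the amygdala. With an offset that took out the dependence of every library on transcript length and base composition, edgeR called 0 of the 35 members, against 2.85% of all genes tested, with 5 members at an unadjusted p under 0.05 (17.8% of all genes tested). Of the 11, Cdh10 and Pcdh11x had the opposite sign. The other 9 kept their sign with smaller differences, which were 0.15 for Cdh22, 0.086 for Pcdh1, 0.10 for Celsr3, 0.21 for Celsr1, -0.077 for Pcdh9, -0.11 for Cdh11, -0.11 for Cdh7, -0.044 for Pcdh7 and -0.011 for Cdh8, and the smallest adjusted p among them was 0.139, for Cdh22 at a log2 difference of 0.15 ± 0.05.

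The states also differed in their animal numbers. Numbers of 3 digits belonged to 7 primiparous but 2 virgin females, and numbers of 4 digits to 6 virgin females but 1 primiparous female. With that series as a covariate, edgeR called 0 of the 35 members (0.023% of all genes tested), with 9 members at an unadjusted p under 0.05 (14.7% of all genes tested). All 11 kept their sign, with log2 differences of 0.17 to 0.25 for the higher members and -0.12 to -0.30 for the lower ones. Of the 11, 6 were among those 9, and the smallest adjusted p among the 11 was 0.169. What the series stands for is not given in the labels, and its part in the result was not tested further. Summed markers of oligodendrocyte precursors (Pdgfra, Cspg4, Olig1, Olig2 and Gpr17) were at 388 to 437 CPM in virgin and 435 to 496 CPM in primiparous hypothalamus, with 3 of the 5 genes higher. These ranges overlapped between 435 and 437 CPM. Summed hippocampus markers in the same libraries were at 49.6 to 59.5 CPM (median 54.2) in virgin and 57.1 to 68.4 CPM (median 64.4) in primiparous females, with 1 of 4 genes called higher. The summed markers of 9 other cell types and tissues overlapped between the groups, with at most 1 gene of a list called, and those of the pituitary ran from 0 to 178.8 CPM in virgin and from 0 to 140.1 CPM in primiparous females. The part of any of them in the members' differences was not tested.

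**Figure D4:**
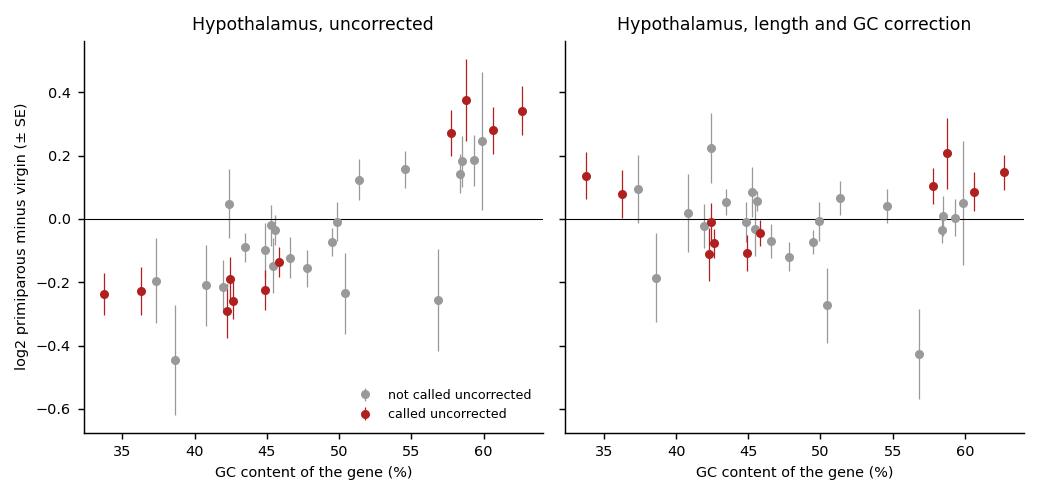
Log2 difference between primiparous and virgin hypothalamus (± SE) against GC content for the 33 members with at least 1 CPM, before (left) and after (right) the correction for gene length and GC content. Red marks the 11 members called before the correction. On the left the values rise with GC content (r = 0.82), and on the right they lie around 0 (r = 0.02). The correction takes out the dependence on GC content over all genes, so the fall of r is no test of its cause. Corrected r of the members, not drawn here, was 0.40 for amygdala, 0.09 for neocortex, 0.13 for hippocampus and -0.18 for cerebellum.

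In the cerebellum, edgeR called 0 of the 35 members, against 0.707% of all genes tested. limma-voom and DESeq2 also called 0, against 0.553% and 3.88% of all genes tested. Unadjusted p was under 0.05 for 6 members, against 19.5% of all genes tested, and the smallest were those of 3 members enriched in this region. Fat1 was at 309 ± 44.96 CPM in virgin (SD, n = 7) and 256 ± 41.4 CPM in primiparous cerebellum (n = 8), with a log2 difference of -0.26 ± 0.10 (SE, edgeR adjusted p = 0.159). Cdh15 was at 77.5 ± 10.4 and 67.7 ± 5.35 CPM, with a log2 difference of -0.18 ± 0.08 (adjusted p = 0.194). Fat2 was at 827 ± 131.5 and 644 ± 157 CPM, with a log2 difference of -0.35 ± 0.14 (adjusted p = 0.202). None of these passed the threshold. In the same libraries the summed oligodendrocyte precursor markers did not overlap between the groups, at 147 to 157 CPM in virgin and 160.2 to 189 CPM in primiparous females with 1 of 5 genes called higher. Summed oligodendrocyte markers were at 3771 to 5123 CPM (median 4463) and 4696 to 6549 CPM (median 5578), with 1 of 4 called higher, and their part in the members' values was not tested.

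The hippocampus, the neocortex and the amygdala likewise had 0 members called by edgeR, limma-voom or DESeq2. Of all genes tested, edgeR and limma-voom called 0.0% in each region, and DESeq2 called 0.0922%, 0.0307% and 0.73%. Unadjusted p was under 0.05 for 5, 4 and 3 members in these regions, against 7.38%, 9.8% and 11.9% of all genes tested. In the hippocampus the smallest p-values were those of Pcdh17 (log2 difference 0.14 ± 0.05, edgeR adjusted p = 0.584), Pcdh7 (0.16 ± 0.06, 0.615) and Cdh12 (0.27 ± 0.10, 0.615). The Fat2 difference there was 2.79 ± 1.12 on the log2 scale (edgeR adjusted p = 0.652) and 0.29 ± 0.29 without animal 413. In the neocortex they were those of Cdh22 (0.33 ± 0.10, adjusted p = 0.479), Pcdh19 (-0.28 ± 0.09, 0.479) and Pcdh17 (-0.19 ± 0.08, 0.488), and in the amygdala those of Fat4 (0.24 ± 0.09, 0.282), Celsr2 (-0.19 ± 0.08, 0.326) and Cdh22 (-0.15 ± 0.07, 0.393). With the length and GC correction these 3 neocortex differences were 0.14, -0.21 and -0.063. The 3 amygdala differences were then 0.21, -0.11 and 0.024, so that of Cdh22 changed sign. The number of members with a log2 difference below 0 was lowest in the hippocampus, at 7 of 35. It was 23 for both hypothalamus and neocortex, 18 for cerebellum and 16 for amygdala. Over all genes tested the share below 0 was 47.3% to 50.7% in the 5 regions. With the length and GC correction the members below 0 numbered 17 for hypothalamus, 20 for neocortex, 16 for cerebellum, 18 for amygdala and 8 for hippocampus.

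Whether the state difference itself departed between the hypothalamus and another region was tested as an interaction. All 4 of these comparisons share the hypothalamus libraries. Against the cerebellum, edgeR called 6 members (17.1%, against 15.5% of all genes tested), and 3 with the animal as a replicate block (8.57%, against 11.5%). The log2 difference of Pcdh9 was -0.26 for hypothalamus and 0.05 for cerebellum, a departure of -0.32 ± 0.08 (SE, edgeR adjusted p = 0.0119, and 0.0196 with the block). Pcdh1 departed by 0.44 ± 0.12 (adjusted p = 0.0128, and 0.0193 with the block) and Fat1 by 0.38 ± 0.12 (0.0284, and 0.0212 with the block). Celsr3, Cdh12 and Cdh22 were called without the block alone (adjusted p = 0.0377, 0.0396 and 0.0417), with 0.0707, 0.0945 and 0.0815 with it.

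Against the hippocampus, edgeR called 7 members, against 17.2% of all genes tested, and 6 with the block, against 11.1%. Pcdh9 had a state difference of 0.11 in the hippocampus, and the departure from the hypothalamus was -0.38 ± 0.08 (SE, edgeR adjusted p = 0.00413). Pcdh7, Cdh11, Celsr3, Cdh12 and Cdh8 departed by -0.31 ± 0.08, -0.32 ± 0.08, 0.33 ± 0.10, -0.72 ± 0.22 and -0.31 ± 0.09 (adjusted p = 0.00724, 0.00751, 0.0186, 0.0215 and 0.0224). Cdh2, N-cadherin, departed by -0.20 ± 0.07 (adjusted p = 0.0329) and was the member not called with the block (0.0524). Against the amygdala, edgeR called 5 members (14.3%, against 18.2%), of which Cdh22 (0.49 ± 0.11, adjusted p = 0.00237, and 0.0128 with the block) and Celsr2 (0.34 ± 0.10, 0.0210, and 0.0456) were called with the block as well (14% of all genes tested were). Pcdh9, Fat4 and Celsr3 were at 0.0519, 0.0709 and 0.131 with it. Against the neocortex edgeR called 0 members (0.0% of all genes tested), with 2 at an unadjusted p under 0.05 (2.58% of all genes tested), and limma-voom also called 0. With the block and the length and GC correction together, edgeR called 0 members in each of the 4 comparisons, against 3.96%, 0.475%, 0.0% and 0.673% of all genes tested for the cerebellum, hippocampus, neocortex and amygdala. In that fit 7, 7, 1 and 6 members had an unadjusted p under 0.05, against 20.3%, 12.7%, 3.33% and 12.7% of all genes tested. Its departures from the amygdala were 0.11 for Cdh22, 0.082 for Celsr2, -0.034 for Pcdh9, -0.48 for Fat4 and 0.12 for Celsr3. Those from the cerebellum were -0.13 for Pcdh9, 0.21 for Pcdh1, 0.23 for Fat1, 0.44 for Celsr3, -0.39 for Cdh12 and 0.14 for Cdh22.

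**Figure D5:**
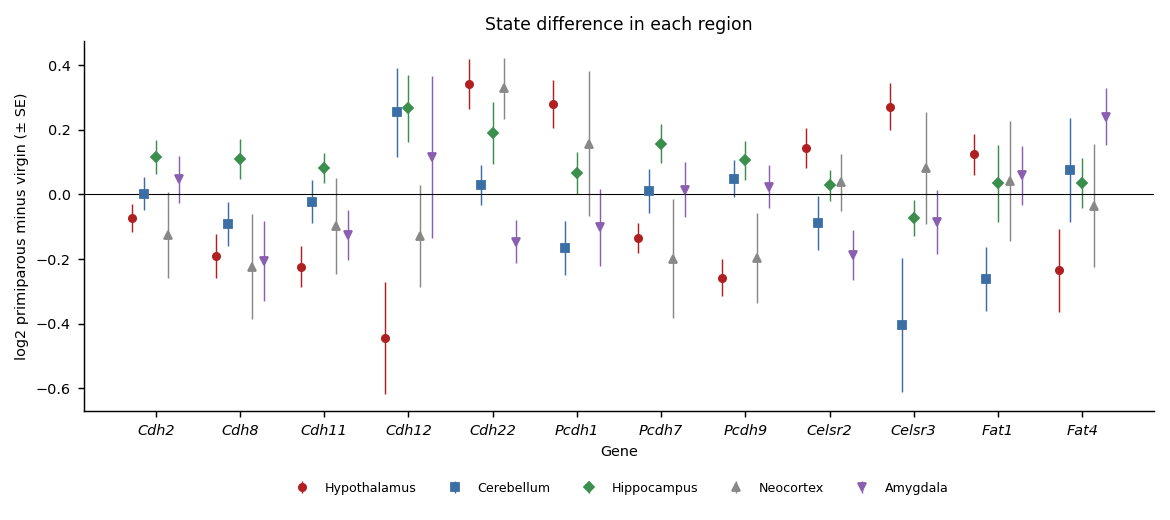
Log2 difference between primiparous and virgin females (± SE) in each of the 5 regions for the 12 members with a called interaction, from the fits of single regions. Pcdh9 lies at -0.26 in the hypothalamus and at 0.11 in the hippocampus, and Cdh22 at 0.34 in the hypothalamus and -0.15 in the amygdala. With the length and GC correction, not drawn here, these values were -0.077 and 0.063 for Pcdh9 and 0.15 and 0.024 for Cdh22.

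Genes that work with these proteins were taken from a list of 48, of which 47 were measured (Prickle3 did not pass the filter). It holds catenins and adherens junction proteins, planar cell polarity proteins, the WAVE complex with other protocadherin partners, and shedding enzymes. In the hypothalamus edgeR called 6 of the 47 higher and 4 lower in primiparous females, against 10.8% and 11.8% of all genes tested. The WAVE complex subunits Nckap1 (-0.22 ± 0.04, adjusted p = 0.00212), Abi1 (-0.31 ± 0.07, 0.0037) and Abi2 (-0.24 ± 0.05, 0.00524) fell. Their list, the WAVE complex with other protocadherin partners, held 12 genes, with 3 called lower, 1 called higher and a median log2 difference of -0.018. The planar cell polarity effector Dvl1 (0.27 ± 0.06, 0.00344), the catenin Arvcf (0.28 ± 0.07, 0.00809) and the kinase Taok2 (0.22 ± 0.06, 0.0122), all with edgeR adjusted p, rose. With the length and GC correction Nckap1 alone was called (log2 difference -0.12, adjusted p = 0.0296), and with the series covariate 0 of the 47 were. In the cerebellum edgeR called 0 of the 47, with 7 at an unadjusted p under 0.05 (19.5% of all genes tested). In the hippocampus, the neocortex and the amygdala it called 0, with 1, 4 and 7 at an unadjusted p under 0.05, against 7.38%, 9.8% and 11.9% of all genes tested.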

How the data were processed

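Poly(A)-selected RNA was sequenced as 100-base single-end reads. According to the study's methods and the labels, the authors aligned reads to mm10 with HISAT2 and counted those mapping once with featureCounts; the kit does not mark strand, and how the counting treated strand is not given in the sources used here. The deposited count table holds raw counts per gene. The deposited log2 table, which lies within 0.0159 of log2(count / size factor + 4), was used for gene symbols alone. ERCC spike-ins were not analysed here, and 3 virgin libraries that the labels mark as not included were left out.

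CPM and tests were computed here with edgeR 4.0.16 (quasi-likelihood, TMM, R 4.3.3) on 13016 genes, with p-values adjusted over all of them by the Benjamini-Hochberg method. States were compared within each region, regions in 1 fit of 10 groups averaged over the states, and departures as interactions. Alternatives were limma 3.58.1 (voom, and trend on log2(CPM + 4)), DESeq2 1.42.0, size factors, other filters and folds, a fit of 10 groups, the animal-number series as a covariate, a length and GC correction (splines with 4 degrees of freedom, 12632 genes), the animal as a block, and leaving out each library. No outcome of a check on simulated data is reported here. Python 3.11.15 was used for summaries.

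Members and lists were chosen with earlier results of these data known. Named were the enriched members, the 3 most even, the 3 highest and lowest per length, members called by state or interaction (up to 6 a comparison, plus Cdh2), the 3 smallest p-values where none was called, and up to 6 partner genes. Labels tie libraries of 1 animal across regions; the median correlation of their deviations was -0.0132 to 0.104 over 10 pairs of regions, against -0.0205 to 0.00685 between other animals of the state. Libraries held 7959192 to 37871854 counts, and their number limits the precision.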

Additional observations from a re-analysis of the deposited data

Results flagged for a closer look

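Pcdh1 in the hypothalamus of primiparous animal 421 was at 93.8 CPM, apart from the 7 other primiparous libraries at 61.3 to 71.0 CPM. It was 1 of 54 groups of libraries examined for a value apart, and chance flags about 1 in 20 groups. Without this library the log2 difference of Pcdh1 between the states was 0.21 rather than 0.28, still called by edgeR.

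The state difference of 12 members departed between the hypothalamus and another region in 18 interaction tests (edgeR, adjusted p under 0.05), all of which share the hypothalamus libraries. Given as the hypothalamus difference minus the other on the log2 scale, the departures from the amygdala were 0.49 for Cdh22, 0.34 for Celsr2, -0.28 for Pcdh9, -0.47 for Fat4 and 0.36 for Celsr3. Those from the cerebellum were -0.32 for Pcdh9, 0.44 for Pcdh1, 0.38 for Fat1, 0.67 for Celsr3, -0.71 for Cdh12 and 0.31 for Cdh22. Those from the hippocampus were -0.38 for Pcdh9, -0.31 for Pcdh7, -0.32 for Cdh11, 0.33 for Celsr3, -0.72 for Cdh12, -0.31 for Cdh8 and -0.20 for Cdh2. These values come from the fit without the animal as a block. With the block, 2 of the 5 for the amygdala (Cdh22 and Celsr2), 3 of the 6 for the cerebellum (Pcdh9, Pcdh1 and Fat1) and 6 of the 7 for the hippocampus (all but Cdh2) had an adjusted p under 0.05. With the length and GC correction added to the block, 0 members were called in each of these comparisons.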

How the results depend on the processing

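The 7 enriched members were the same with the animal as a replicate block, with size factors, with limma-voom, with the length and GC correction and without hippocampus animal 413. With primiparous libraries alone there were 6 (Cdh23 was lost), and with virgin libraries alone 8 (Pcdh17 was added). They numbered 14 at a log2 difference of at least 0.58 and 2 at 2 or more, with no share over all genes given at these 2 thresholds. In the hypothalamus the 11 members called by state became 9 with limma-voom, 9 with limma-trend (5 higher and 4 lower), 14 with DESeq2 and 3 in the fit of 10 groups (19.8%, 23.5%, 25.6% and 16.8% of all genes tested), and 0 with the series covariate and 0 with the length and GC correction, and the 10 partner genes became 0 and 1 under the latter settings. The length and GC correction turned the sign of Cdh10 to 0.14, of Pcdh11x to 0.078 and of Cdh22 in the amygdala to 0.024. In the cerebellum DESeq2 and the length and GC correction each called 2 of the 47 partner genes, against 0 in the main fit. Of all genes tested, these 3 fits called 3.88%, 3.25% and 0.707%. The causes were not tested.

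With the animal as a replicate block, the members whose state difference departed from the hypothalamus numbered 3 for the cerebellum, 6 for the hippocampus, 0 for the neocortex and 2 for the amygdala, and 0, 0, 0 and 0 with the length and GC correction added. The region calls numbered 150 with the block and 152 without it.

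Leaving out 1 library gave 7 to 17 members in the hypothalamus (7 without virgin 4487 or 4491, 17 without primiparous 4493), 0 to 1 in the cerebellum (Fat1, without primiparous 4493), and 0 to 0 in the hippocampus, the neocortex and the amygdala. It gave 7 to 15 partner genes in the hypothalamus and 0 to 2 in the cerebellum (2 without primiparous 4493, 1 without primiparous 418 and 1 without virgin 4488). No share over all genes is given for the fits without 1 library, so these shifts are not read as a trait of the members or partner genes. Calls were lost in 13 of 16 such fits for Cdh8, 9 for Pcdh11x, 8 for Pcdh7 and 7 for Celsr1, and in 0 for the other 7. Members under 1 CPM in a region, such as Fat2 in the neocortex, rest on few reads.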
